A study of Mus musculus with 4 samples.

Results

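Tight junction genes of simple epithelium were read as 9 genes, namely the claudins Cldn3, Cldn4, Cldn6 and Cldn7, the MARVEL-domain genes Ocln, Marveld2 and Marveld3, the scaffold gene Tjp1 and the adhesion receptor gene F11r. They were chosen by name with earlier results of these data known, so counts beside the share of all genes are description only. They are 9 of 18193 genes on the array, read by the 16 probe sets, of 45037 non-control ones, that the annotation gives to them alone. RNA came from mouse embryonic stem cells that lacked Snai1 (knockout, KO) or carried the control genotype written F/F. They were grown in mice as teratomas, or in suspension as embryoid bodies. The 4 groups were Snai1 knockout and control teratomas at week 6, and Snai1 knockout and control embryoid bodies on day 5, with 1 array each. Teratomas are tumours of mixed tissue, grown here subcutaneously in a hind limb of nude male hosts that were 6 weeks old at injection. Nude hosts lack T cells and still supply vessels, stroma and non-T leukocytes to the tumour. Embryoid bodies are aggregates of stem cells that differentiate without added direction, and were started as hanging drops. Whether each line was 1 clone, and whether tumours or cultures were pooled, is not given in the sources used here.

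Tight junctions seal the space between epithelial cells near their apical side. Claudins are small four-pass membrane proteins whose strands form the seal and set which ions pass. Occludin (Ocln), tricellulin (Marveld2) and Marveld3 are four-pass MARVEL proteins of the same strands, tricellulin being concentrated where 3 cells meet. Tjp1 encodes ZO-1, the scaffold that ties claudins and occludin to actin, and F11r encodes JAM-A, an immunoglobulin-type receptor of the junction that endothelium, platelets and leukocytes also carry. Snai1 is a zinc-finger repressor that binds E-boxes with the core letters CAGGTG, and in cultured mouse epithelial cells it is known to bind and repress claudin and occludin promoters. Pluripotent epiblast cells are themselves an epithelium and carry many of these proteins.

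Promoter windows from 250 bases before to 50 after the gene start were read from RefSeq (build GRCm38.p6) because that E-box is the letter pattern Snai1 is known for. Of the 9 genes, 8 had a window and 11 windows were found. CAGGTG was searched on both strands, so that CACCTG on the printed strand is the same match. It lay in the windows of 7 of the 8 genes, against 22.1% of 17492 protein-coding genes, and in 9 of 11 windows, against 19.7% of 21263 protein-coding windows. At least 2 matches in 1 window were found for 4 of the 8 genes, against 3.25% of protein-coding genes. The overlapping windows of Ocln share a match, as do those of Marveld2, and counted once by position there were 11 matches. Median GC content, which bears on how often such letters occur, was 60.7% in the 11 windows and 56.3% in all protein-coding windows. Among genes measured in embryoid bodies, 21.3% of 9681 held a match. The share was 36.6% of the 202 genes with a window that were at least 2-fold higher in the knockout, and 19.1% of the 351 that were at least 2-fold lower. These are counts of letters, and binding was not measured.

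Windows are shown for the 4 claudins, for occludin and, as the window with no match, for Tjp1. Each is written 5′ to 3′ along the gene, with matches in capitals.
Cldn4, chr5:134946885-134947184, minus strand: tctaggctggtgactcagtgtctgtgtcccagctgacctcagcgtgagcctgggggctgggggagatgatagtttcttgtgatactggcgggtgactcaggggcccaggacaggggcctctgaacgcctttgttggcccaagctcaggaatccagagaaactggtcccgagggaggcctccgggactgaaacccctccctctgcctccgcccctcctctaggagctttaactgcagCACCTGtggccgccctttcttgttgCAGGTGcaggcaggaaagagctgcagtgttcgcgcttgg
Cldn3, chr5:134985964-134986263, plus strand: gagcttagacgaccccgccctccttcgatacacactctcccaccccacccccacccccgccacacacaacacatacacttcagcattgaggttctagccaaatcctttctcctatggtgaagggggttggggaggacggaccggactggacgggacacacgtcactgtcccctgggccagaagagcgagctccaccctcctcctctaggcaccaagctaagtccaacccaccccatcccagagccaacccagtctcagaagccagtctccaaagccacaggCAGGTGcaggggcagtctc
Cldn6, chr17:23679115-23679414, plus strand: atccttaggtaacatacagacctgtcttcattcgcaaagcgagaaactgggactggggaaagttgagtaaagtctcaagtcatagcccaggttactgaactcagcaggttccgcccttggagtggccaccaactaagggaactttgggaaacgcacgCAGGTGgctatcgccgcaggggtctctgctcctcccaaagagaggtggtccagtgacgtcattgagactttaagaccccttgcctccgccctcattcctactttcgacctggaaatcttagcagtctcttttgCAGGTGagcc
Cldn7, chr11:69965171-69965470, plus strand: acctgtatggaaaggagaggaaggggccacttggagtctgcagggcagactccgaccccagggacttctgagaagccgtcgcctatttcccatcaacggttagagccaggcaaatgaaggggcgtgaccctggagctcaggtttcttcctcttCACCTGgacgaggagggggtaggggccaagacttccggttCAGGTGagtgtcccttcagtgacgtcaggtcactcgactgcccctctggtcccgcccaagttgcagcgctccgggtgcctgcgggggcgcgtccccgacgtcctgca
Ocln, chr13:100552449-100552748, minus strand: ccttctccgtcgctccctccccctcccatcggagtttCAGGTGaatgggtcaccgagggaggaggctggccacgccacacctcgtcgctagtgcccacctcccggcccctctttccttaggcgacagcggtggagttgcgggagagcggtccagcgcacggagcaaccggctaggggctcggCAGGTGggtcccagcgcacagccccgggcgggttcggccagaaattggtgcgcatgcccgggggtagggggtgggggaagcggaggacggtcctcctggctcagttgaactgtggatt
Tjp1, chr7:65371195-65371494, minus strand: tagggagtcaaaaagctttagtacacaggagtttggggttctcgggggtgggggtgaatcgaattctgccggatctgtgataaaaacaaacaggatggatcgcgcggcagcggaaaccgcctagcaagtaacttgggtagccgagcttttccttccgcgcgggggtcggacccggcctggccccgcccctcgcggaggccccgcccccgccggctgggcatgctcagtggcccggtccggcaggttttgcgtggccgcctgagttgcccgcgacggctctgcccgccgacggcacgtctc
The matches of Cldn4 lay at bases 237 to 242 and 262 to 267 of its window, on either side of the gene start, and that of Cldn3 at bases 282 to 287, after the start. Cldn6 had matches at bases 158 to 163 and 291 to 296. Cldn7 and Ocln each had a pair in the windows shown, and the other Cldn7 window had none. F11r and Marveld2, whose windows are not printed, had 1 distinct match each.

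**Figure D1:**
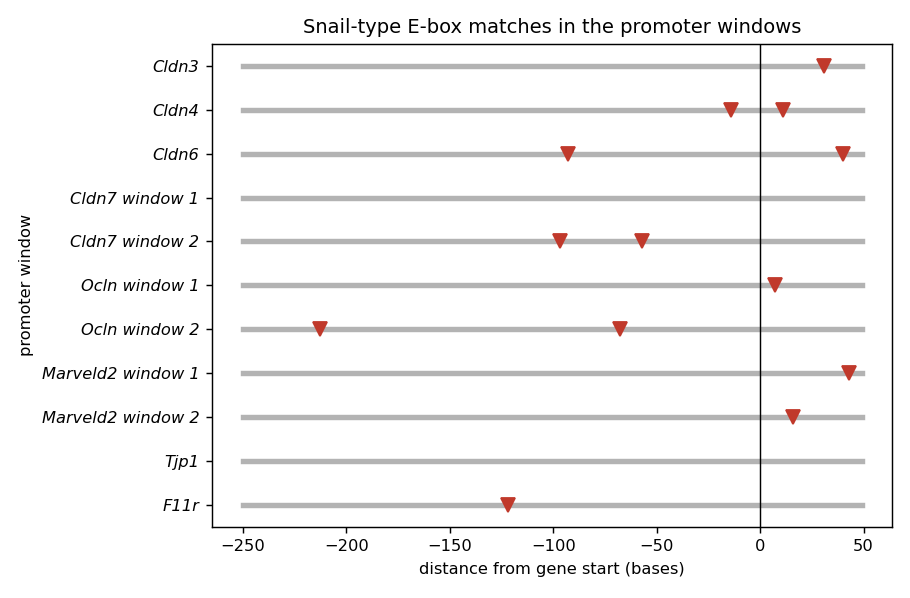
Positions of the E-box match (triangles) along each promoter window (grey line), in bases from the gene start (vertical line). Of 11 windows, 9 hold at least 1 match, and the Tjp1 window and 1 of 2 Cldn7 windows hold none.

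Expression values are log2 units of RMA, a summary per probe set in which 1 unit is a 2-fold difference. A floor was set at the median of each array, 5.04 in the knockout teratoma, 5.08 in the control teratoma, 4.73 in knockout embryoid bodies and 4.71 in control embryoid bodies. A value under the floor was set to it, so a difference that uses it is a bound, written "at least". Counts of genes called higher or lower start at 2-fold, and a smaller fold is given as a value and not as a call. RMA values have no true zero, so a value under the floor is not an absence. With 1 array a group there was no spread between replicates, no test and no p-value. The only internal spread was that between probe sets of the same gene, with a pooled SD of 0.29 for the knockout difference in embryoid bodies, 0.28 in teratomas, and 0.65 and 0.66 for the teratoma difference in knockout and control. Such probe sets read the same RNA on the same chip, so that SD holds nothing of the variation from tumour to tumour or culture to culture. Levels of different genes were not set against each other, since probe sets differ in brightness. In bulk RNA, fewer cells of a type and less RNA per cell cannot be told apart.

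Snai1 itself was read by 1 probe set. It read 3.45 in knockout and 4.78 in control embryoid bodies, and 3.44 in the knockout and 3.59 in the control teratoma. Only the control embryoid body value lay above its floor, and only just, at 4.78 against 4.71. The knockout minus control difference in embryoid bodies was therefore a bound of -0.05. In teratomas this probe set says nothing about the genotype, and whether it lies in the deleted part is not given. Snai2, the related repressor gene, read 9.07 in knockout and 10.59 in control embryoid bodies and 7.15 in the knockout and 8.43 in the control teratoma on its brighter probe set. Neuron markers lay above the floor for 8 of 8 genes on each teratoma array, and mesenchyme markers for 10 of 10 on all 4 arrays. Epiblast markers lay above it for 8 of 8 on both embryoid body arrays. The 3′ minus 5′ signal of Gapdh, a measure of RNA integrity, was 0.40 and 0.65 in knockout and control teratomas and 0.10 and 0.17 in knockout and control embryoid bodies. That of Actb was 0.85 and 1.03 in knockout and control teratomas and 0.31 and 0.38 in knockout and control embryoid bodies.

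In day 5 embryoid bodies, Cldn4, Marveld3 and Cldn3 passed 2-fold higher without Snai1, Cldn3 only just. Cldn6, Cldn7, Ocln, Marveld2 and F11r lay above 0 by less than 2-fold, and the scaffold gene Tjp1 differed by less than the spread of probe sets. Of the 9 genes, 3 were at least 2-fold higher, against 2.18% of 12282 measured genes, and 0 were at least 2-fold lower, against 3.98%. From 1.5-fold on, 6 of 9 were higher, against 6.92% of measured genes. In total 8 of 9 lay above 0, against 53.1% of measured genes. The median difference over the 9 genes was 0.80, from -0.05 to 1.92, and that over all measured genes was 0.03. The comparison asks what loss of this repressor does to genes of cell layers.

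The claudins gave the widest spread. Cldn4, a claudin of tight epithelia that limits passage of sodium, read 10.28 in knockout and 8.36 in control embryoid bodies. It was 3.79-fold higher, and only 27 of 12282 measured genes had a higher difference. Cldn3, a sealing claudin whose gene lies beside Cldn4 on chromosome 5, read 8.64 in knockout and 7.63 in control embryoid bodies, a difference of 1.00. Its other 3 probe sets gave 0.86, 0.97 and 1.05, so Cldn3 sits on the 2-fold line, and it was at 0.98 with arrays scaled to 1 median and 0.96 after another quantile normalization. Cldn6, a claudin of embryonic epithelia, read 11.30 in knockout and 10.37 in control embryoid bodies, which is 1.90-fold higher. Cldn7, a claudin of the lateral membrane that partners with Epcam, read 11.28 in knockout and 10.78 in control embryoid bodies and was 1.42-fold higher. All 4 claudins were above their control value by more than the pooled SD between probe sets.

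Among the MARVEL genes, Marveld3 read 7.50 in knockout and 6.03 in control embryoid bodies, 2.77-fold higher. That rests on 1 of its 3 probe sets, since the other 2 lay below the floor on every array. With the mean of the 3, the control value lay below the floor and the difference was a bound of at least 0.41. Ocln read 8.95 in knockout and 8.14 in control embryoid bodies, 1.75-fold higher, and its other probe set differed by 0.56. Marveld2 read 8.87 in knockout and 8.28 in control embryoid bodies, a difference of 0.59. All 3 MARVEL genes lay above 0 on each probe set above the floor.

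The scaffold and the adhesion receptor lay apart from each other. Tjp1 read 10.31 in knockout and 10.36 in control embryoid bodies, a difference of -0.05. F11r read 10.71 in knockout and 10.15 in control embryoid bodies, 1.48-fold higher, on its brighter probe set. Its other probe set lay below the floor on every array. Markers of endothelium, platelets and leukocytes, which also carry JAM-A, are given with the other marker lists, and their part in the F11r difference was not tested.

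**Figure D2:**
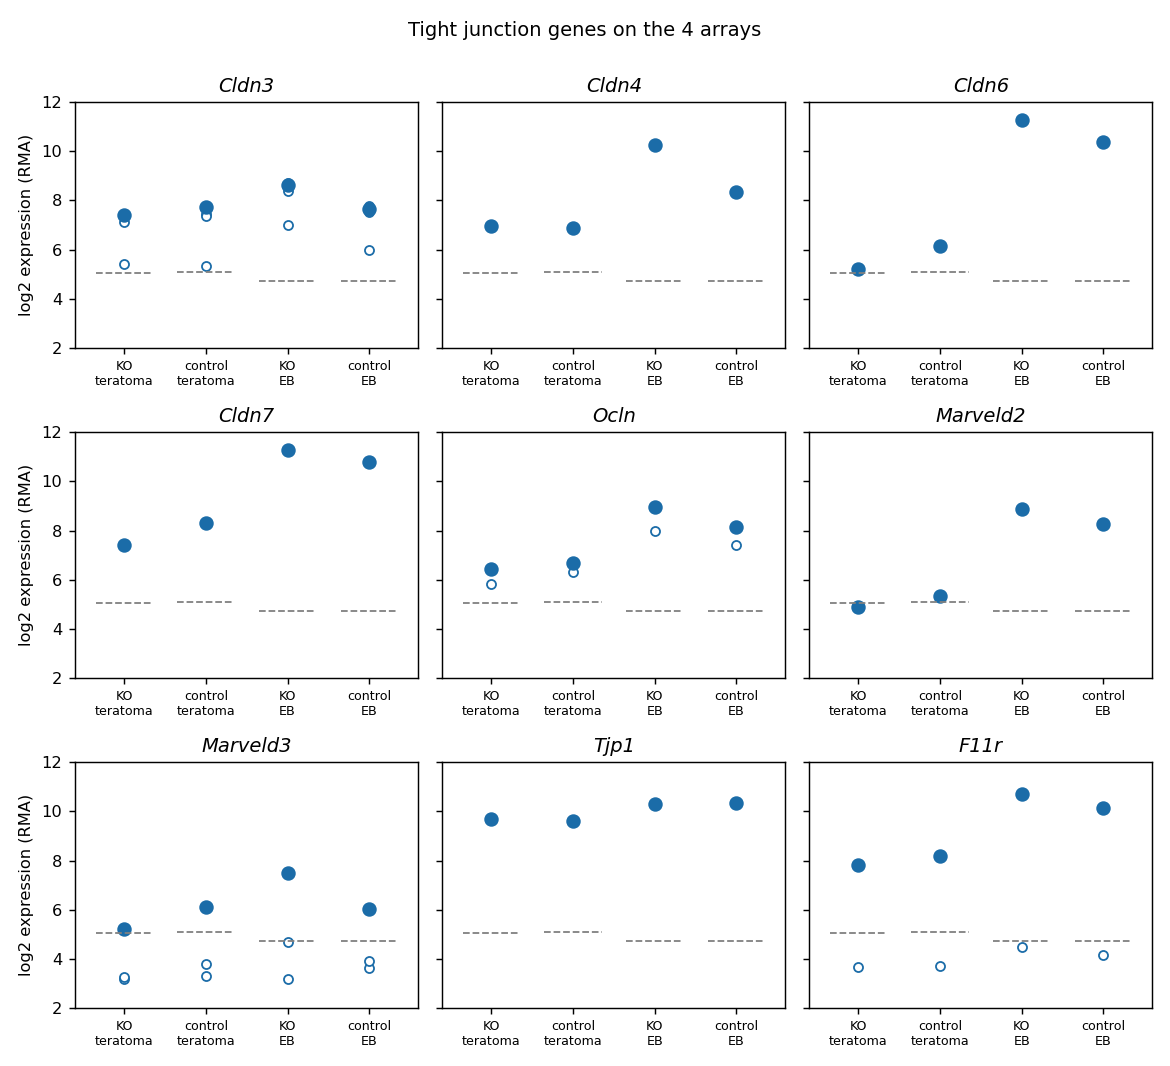
Log2 expression of the 9 genes on the 4 arrays, 1 array per group. Filled points are the probe set used for the gene, open points its other probe sets, and dashed lines each array's floor. Knockout embryoid bodies are the highest array for 8 of the 9 genes, and Tjp1 differs by 0.08 or less between genotypes and by 0.76 over the 4 arrays.

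Marker lists of other cell types differed in embryoid bodies as well. Mesenchyme markers were at least 2-fold lower in 9 of 10 genes, with a median of -4.06 and a mean level of 6.52 in knockout and 10.22 in control. Visceral endoderm markers were lower in 6 of 7 (median -3.18, mean level 6.87 in knockout and 9.67 in control). Endothelial markers were lower in 4 of 8 (median -1.03, mean level 6.30 in knockout and 7.49 in control), platelet markers in 5 of 5 (median -2.48) and leukocyte markers in 2 of 6 (median -0.41). Epiblast markers were at least 2-fold higher in 2 of 8, with a median of 0.54 and a mean level of 7.96 in knockout and 7.15 in control. Their part in the junction gene differences was not tested.

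In week 6 teratomas most of the same genes lay below 0 in the knockout, none of them by 2-fold. Of the 9 genes, 0 were at least 2-fold lower, against 1.07% of 12197 measured genes, and 0 were at least 2-fold higher, against 3.25%. From 1.5-fold on, 3 of 9 were lower (Cldn6, Cldn7 and Marveld3), against 5.05% of measured genes. In total 7 of 9 lay below 0, against 42.0%. The median over the 9 genes was -0.32, from -0.92 to 0.08, and that over all measured genes was 0.06.

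Cldn6 read 5.21 in the knockout and 6.13 in the control teratoma, 1.89-fold lower, with the knockout value close to the floor. Cldn7 read 7.39 in the knockout and 8.31 in the control teratoma, also 1.89-fold lower, and passed 2-fold (-1.06) after another quantile normalization. Marveld3 read 5.22 in the knockout and 6.09 in the control teratoma, 1.84-fold lower. Of the 12197 measured genes, 177 had a lower difference than Cldn6, 178 than Cldn7 and 202 than Marveld3.

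For Cldn3 the teratoma arrays read 7.42 in the knockout and 7.73 in the control, a difference of -0.32, and its 4 probe sets ran from -0.32 to 0.10 with no common sign. Ocln read 6.42 in the knockout and 6.66 in the control teratoma, a difference of -0.24, and its other probe set gave -0.51. F11r read 7.83 in the knockout and 8.19 in the control teratoma, a difference of -0.36. These differences were near the spread between probe sets. Marveld2 read 4.90 in the knockout teratoma, under the floor, and 5.34 in the control teratoma, at least 1.23-fold lower. Cldn4 and Tjp1 differed by 0.08 each, with 6.94 in the knockout and 6.87 in the control teratoma for Cldn4, and 9.68 in the knockout and 9.60 in the control teratoma for Tjp1. Both lay within the spread between probe sets, and the sign for Tjp1 turned (-0.05) after another quantile normalization.

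Marker lists of other tissues differed between the tumours as well. Stomach and gut markers were at least 2-fold lower in 4 of 6 genes, with a median of -1.62 and a mean level of 6.59 in the knockout and 7.81 in the control teratoma. Neuron markers were at least 2-fold higher in 4 of 8 (median 0.84, mean level 10.70 in the knockout and 9.77 in the control) and leukocyte markers in 4 of 8 (median 0.74, mean level 9.01 in the knockout and 8.0 in the control). Mesenchyme markers were lower in 3 of 10 (median -0.73). Endothelial markers had a median of -0.09 with 0 of 8 past 2-fold, and platelet markers a median of 0.38 with 0 of 5. Visceral endoderm markers had a median of 0.19 over 4 measured genes, which ran apart. Of these, 1 was at least 2-fold higher (Ttr, by 2.55) and 1 lower (Afp, by -2.84). Epiblast markers were higher in 4 of 7, with a median of 1.31. The part of this makeup in the junction gene differences was not tested.

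Taking the 2 tissues side by side, 7 of the 9 genes were above 0 in knockout embryoid bodies and below 0 in the knockout teratoma, against 24.6% of 11187 genes measured in both. Cldn6 and Marveld3 passed 1.5-fold in both opposite ways, against 0.617% of those genes. Their knockout teratoma values, 5.21 for Cldn6 and 5.22 for Marveld3, lay close to the floor of 5.04. Marveld3 rests on 1 of its 3 probe sets. With their mean its control embryoid body value lay below the floor. The difference there was at least 0.41, a bound that does not show whether 1.5-fold was passed. Cldn4 was the gene whose difference was high in embryoid bodies and near 0 in teratomas. The teratoma difference minus the embryoid body difference was -2.35 for Marveld3, -1.84 for Cldn6 and for Cldn4, -1.42 for Cldn7 and -1.32 for Cldn3. It was 0.13 for Tjp1. These comparisons use different arrays, and with 1 array a group the difference between tissues has no test.

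**Figure D3:**
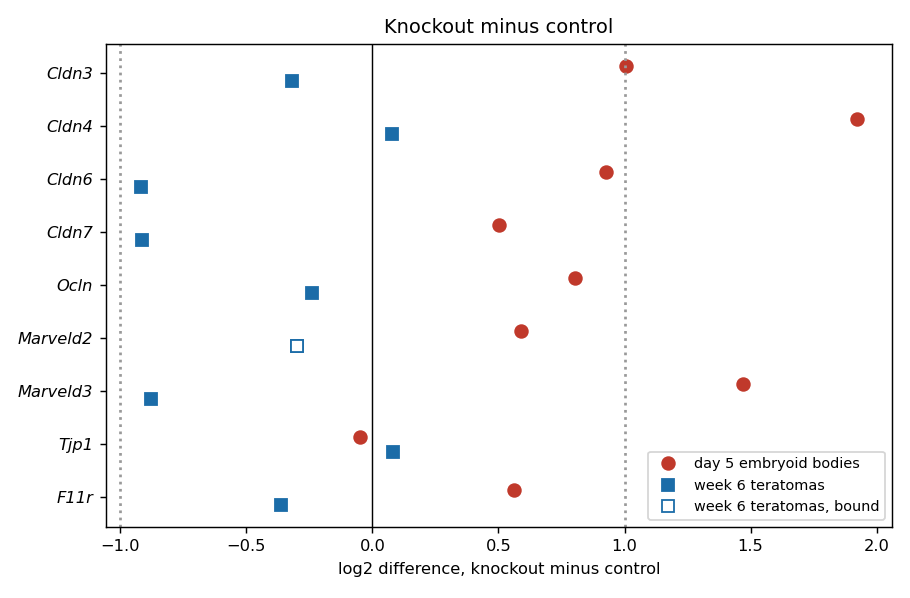
Knockout minus control log2 difference of each gene in embryoid bodies (circles) and teratomas (squares), with dotted lines at 2-fold. Embryoid body values reach 1.92 (Cldn4), and teratoma values reach -0.92 (Cldn6). The open square is a bound.

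Between teratomas and embryoid bodies, Cldn6 had the largest difference of the 9 genes, lower in teratomas in both genotypes. In knockout cells 8 of 9 were at least 2-fold lower and 0 were higher, against 19.8% of 12936 measured genes lower and 19.8% higher. In control cells 6 of 9 were at least 2-fold lower (all but Cldn3, Marveld3 and Tjp1) and 0 were higher, against 19.0% of 12956 measured genes lower and 16.2% higher. Lower by 2-fold in both genotypes were 6 of 9, against 13.9% of 12600 genes. The median over the 9 genes was -2.88 in knockout and -1.49 in control, where all measured genes had -0.15 and -0.18. Relative to that shift the medians were -2.72 in knockout and -1.31 in control. Column purification and Trizol extraction follow the tissue, and host cells are in the tumour only, so these cannot be told apart from the setting. Scaling arrays to 1 median moved the all-gene median to -0.46 in knockout and -0.55 in control.

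Cldn6 was 67.8-fold lower in the teratoma in knockout cells and 18.9-fold lower in control cells. Its knockout teratoma value lay just above the floor. It fell below a higher floor (65th percentile), where the knockout difference became a bound of -4.85 in place of -6.08. Only 1 and 15 measured genes had a lower difference than Cldn6 in knockout and in control. Cldn7 was 14.8-fold lower in knockout and 5.55-fold lower in control cells, and Cldn4 was 10.1-fold lower in knockout and 2.81-fold lower in control cells. Marveld2 was at least 14.2-fold lower in knockout and 7.67-fold lower in control cells. With the higher floor its log2 differences were only bounds, of -2.42 in knockout and -1.88 in control. As reported they were -3.83, itself a bound, and -2.94. F11r was 7.34-fold lower in knockout and 3.87-fold lower in control cells on its brighter probe set. With the mean of its probe sets, of which the other lay below the floor, the differences were -1.83 in knockout and -1.18 in control, against -2.88 and -1.95. Ocln was 5.76-fold lower in knockout and 2.79-fold lower in control cells. Cldn3 and Marveld3 differed by -1.22 and -2.28 in knockout and by 0.10 and 0.07 in control cells. The control signs turned with arrays scaled to 1 median, to -0.27 for Cldn3 and -0.30 for Marveld3. The other probe sets of Cldn3 gave -0.66, -0.31 and -0.14 in control cells. For Marveld3 the knockout teratoma value lay below the floor with the mean of its probe sets and with the higher floor. The knockout differences were then only bounds, of -0.08 and -1.04 in turn. Tjp1 was under 2-fold in each genotype, at -0.63 in knockout and -0.76 in control. The knockout and control values are built from the same 4 arrays as the knockout differences above, so they add no further support to them.

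**Figure D4:**
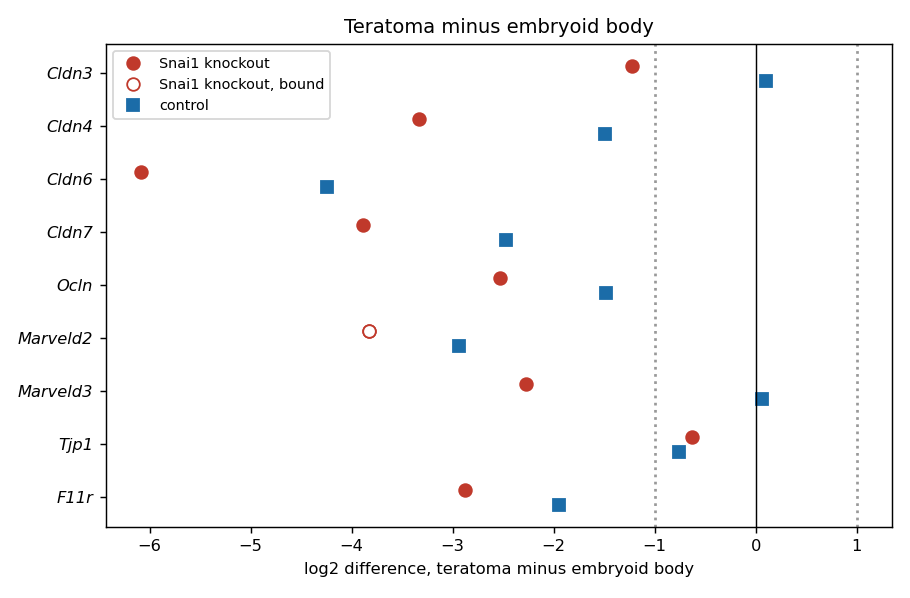
Teratoma minus embryoid body log2 difference of each gene in Snai1 knockout (circles) and control cells (squares), with dotted lines at 2-fold. The knockout value lies left of the control value for all genes but Tjp1, and Cldn6 reaches -6.08 in knockout and -4.24 in control.

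Order over the 4 arrays followed the same lines. Knockout embryoid bodies were the highest array for 8 of 9 genes and for 33.3% of 13292 genes above the floor on at least 1 array. The knockout teratoma was the lowest array for 7 of 9 genes and for 29.2% of the 13292. Both held for 7 of 9 genes and 16.8% of the 13292. Tjp1 was highest in control embryoid bodies, but its 2 embryoid body values and its 2 teratoma values each lay within the spread between probe sets.

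Among the members, profiles centred on each gene's mean were closest for Marveld2 and Cldn7, with a root mean square distance of 0.22 over 4 arrays, and for Ocln and F11r at 0.23. Cldn3 and Cldn6 were farthest apart at 2.31. Of 10179 other genes above the floor on all 4 arrays with a plain symbol, Spint1 lay closest to the mean profile of the 9 genes, at 0.05. It encodes a membrane inhibitor of serine proteases and read 10.05 in knockout and 9.18 in control embryoid bodies, and 6.93 in the knockout and 7.44 in the control teratoma. Tedc1 followed at 0.07, the signal gene Bmp2 at 0.07, the membrane protease gene St14 at 0.10 and the Wnt receptor gene Fzd7 at 0.12. Dera and Krtcap3 lay at 0.13, and Rhou, a small GTPase gene, at 0.14. Likeness over 4 arrays is a description only.

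Other genes of the junction were read from lists. Of 20 further claudins, 16 were on the array and 8 were measured in embryoid bodies, where 1 was at least 2-fold higher and 2 were lower, with a median of 0.27. Cldn23 was 4.75-fold higher, at 8.61 in knockout and 6.36 in control. Cldn5, the claudin of endothelium, was 7.32-fold lower, at 4.84 in knockout and 7.71 in control. Cldn2, a claudin that forms pores for cations, was 4.38-fold lower, at 4.81 in knockout and 6.94 in control. The knockout values of Cldn5 and Cldn2 lay close to the floor of 4.73, so their folds are limited by background. Cldn10 differed by 0.96. These further claudins had no common direction, with 5 above 0 and 3 below 0 in embryoid bodies. In teratomas 9 were measured, with 1 higher, 1 lower and a median of -0.12. Cldn8 read 5.09 in the knockout and 6.46 in the control teratoma, 2.59-fold lower. Cldn11, the claudin of myelin and Sertoli cells, was at least 2.47-fold higher in the knockout, at 6.38 against 4.55 in the control, which lay below the floor. Neuron markers were higher there as well, and their part was not tested. Cldn2 and Cldn10 differed by -0.82 and 0.73.

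Plaque and polarity genes, which build the cytoplasmic side of the junction, were nearer to Tjp1 than to the claudins in embryoid bodies. Of 18 listed genes 17 were on the array and measured, 0 passed 2-fold in either direction, and the median was -0.03. Crb3, an apical membrane anchor of the polarity complex, differed by 0.78, Amot, an angiomotin, by 0.70, the cingulin-related gene Cgnl1 by -0.64 and the polarity gene Pard3 by 0.58. In teratomas 1 of 17 was at least 2-fold lower, Cgnl1 at 6.68 in the knockout and 7.76 in the control, and 0 were higher, with a median of 0.01. Amot and Amotl2 differed by -0.56 each and Pard6b by -0.55. Between teratoma and embryoid body, 11 of 17 were at least 2-fold lower in the teratoma in knockout cells, against 19.8% of measured genes. In control cells 8 of 17 were lower, against 19.0%. The medians were -1.42 in knockout and -0.91 in control.

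Immunoglobulin-type and tricellular genes numbered 8. In embryoid bodies 7 were measured, with 1 at least 2-fold higher, 0 lower and a median of 0.08. That gene was Cxadr, the coxsackievirus and adenovirus receptor, at 8.60 in knockout and 7.39 in control. Lsr, the angulin that recruits tricellulin, differed by 0.72, Jam2 by -0.54 and Ildr1, another angulin gene, by 0.53. In teratomas 6 were measured and 0 passed 2-fold in either direction, with a median of -0.03. Lsr differed by -0.76, Jam3 by -0.33, Cxadr by 0.23 and Jam2 by 0.20. Lsr therefore ran as its partner Marveld2 did, above 0 in embryoid bodies and below 0 in teratomas.

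Other genes of simple epithelium had medians close to those of the 9 junction genes. In embryoid bodies 5 of 18 were at least 2-fold higher, 0 lower, and the median was 0.84. Ovol2 and Elf3, transcription factor genes of epithelia, differed by 1.46 and 1.33. Lad1, which encodes a basement membrane anchoring protein, differed by 1.34 and the splicing regulator gene Esrp1 by 1.15. Ap1m2, an adaptor for basolateral sorting, was the fifth past 2-fold at 1.01. In teratomas 16 were measured, 15 lay below 0 and 1 passed 2-fold, with a median of -0.52. That gene was Krt8, the simple epithelial keratin, at 9.67 in the knockout and 10.69 in the control. Ap1m2 differed by -0.98, the protease gene Prss8 by at least -0.88, and the protease inhibitor gene Spint2 by -0.74. The 9 junction genes shared their medians' sign in each tissue with this list, which stands on the same arrays.

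**Figure D5:**
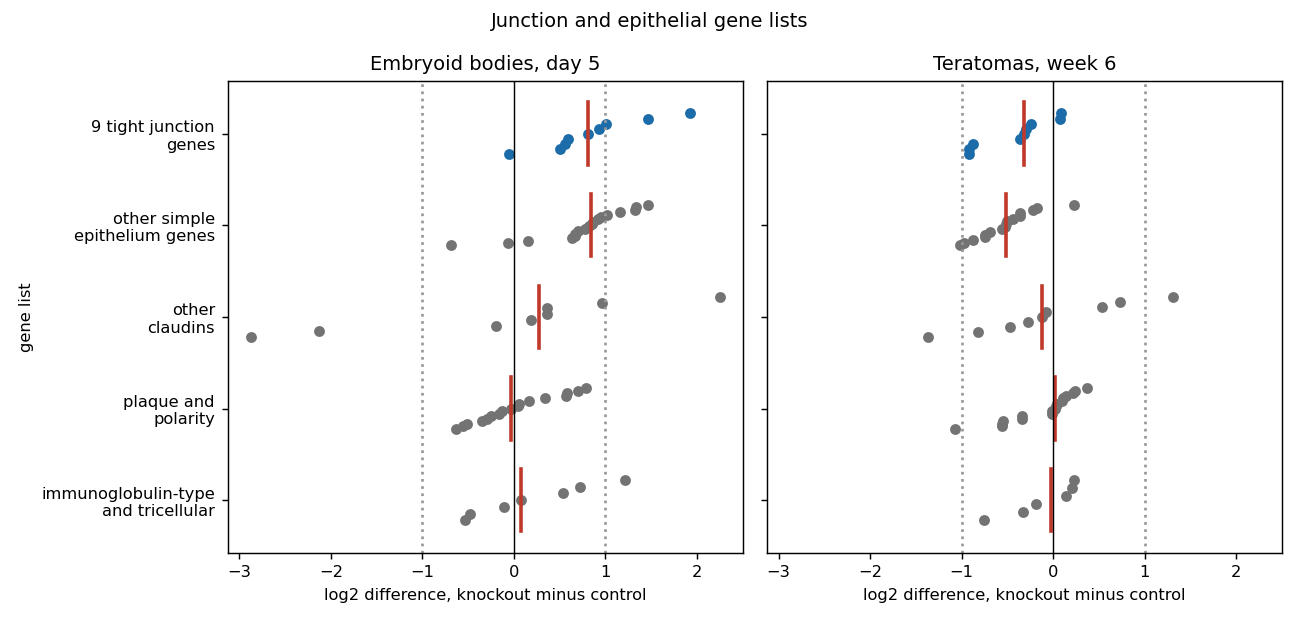
Knockout minus control log2 differences of single genes (points, spread vertically for sight) and list medians (red bars) in embryoid bodies and teratomas, with dotted lines at 2-fold and bounds entered at their bound. The 9 junction genes (blue) have medians of 0.80 in embryoid bodies and -0.32 in teratomas, and the other simple epithelium genes 0.84 and -0.52.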

How the data were processed

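Per the submitters' processing notes, the authors used the affy package and RMA, and deposited log2 values per probe set. Software versions, the probe set definitions and the set of arrays that entered RMA are not stated there. Embryoid body RNA was column-purified and teratoma RNA extracted with Trizol, and 250 ng per sample was amplified, per the labels' protocols. Scanner files were not used here.

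Of 45037 non-control probe sets, 34945 named 1 gene in the platform annotation, and 34741 of those matched RefSeq (GRCm38.p6) by Entrez number. Each gene was read by its brightest probe set, by mean over 4 arrays. Differences were taken after setting values to the floor. A bound whose sign the unequal floors turned was held at 0, and genes below the floor on both arrays were left out. A gene counts as measured if at least 1 array of the pair reached the floor.

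All 9 members are named, and of each other list up to 4 genes with the largest absolute difference, plus the 8 genes nearest in profile. Members and lists were chosen with earlier results of these data known. List genes with no probe set of their own were not analysed here. The number of arrays limits the precision. The code was tested on simulated data. Python 3.11.15, pandas 2.3.3 and NumPy 2.4.6 were used.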

Additional observations from a re-analysis of the deposited data

Results flagged for a closer look

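Knockout minus control differences of opposite sign in embryoid bodies and teratomas, each beyond the pooled SD between probe sets, drew attention to 6 of the 9 genes. In log2 units Marveld3 had 1.47 in embryoid bodies and -0.88 in teratomas. Cldn6 had 0.93 in embryoid bodies and -0.92 in teratomas, and Cldn7 had 0.50 in embryoid bodies and -0.92 in teratomas. Cldn3 had 1.00 in embryoid bodies and -0.32 in teratomas, where its probe sets had no common sign. F11r had 0.56 in embryoid bodies and -0.36 in teratomas, and Marveld2 0.59 in embryoid bodies and a bound of -0.30 in teratomas. With other processing some of these teratoma values fell inside that SD of 0.28. Cldn3 was -0.12 and F11r -0.21 with the mean of probe sets. Marveld2 stayed a bound, of -0.26 with arrays scaled to 1 median and -0.25 after another quantile normalization. These bounds do not show whether its difference lay inside that SD. The difference between the tissues was not tested, since each group had 1 array.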

How the results depend on the processing

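No paired analysis was possible because each group had 1 array. No member past 2-fold changed sign under the alternatives run. Each gene under each setting was counted as 1 value. In embryoid bodies 60 of 61 such values moved by less than the spread between probe sets, as did 57 of 57 in teratomas. For the teratoma difference this held for 56 of 61 in knockout and 57 of 59 in control cells. Many of these values could not move, because the setting left the gene's probe set and level unchanged. Genes without a value under a setting are not counted, so these counts are a weak check. In embryoid bodies the count of members at least 2-fold higher, 3, was 1 with the mean of probe sets, 6 at 1.5-fold and 1 at 3-fold. It was 2 with either scaling, where Cldn3 fell just short of 2-fold. In teratomas the count lower, 0, was 1 after another quantile normalization (Cldn7) and 3 at 1.5-fold. Cldn3 and Tjp1 have only probe sets with the suffix _x_at, _s_at or _a_at, so they had no value in the setting that left those suffixes out.

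Counts over all genes moved more. With the floor at the 65th percentile, genes higher and lower by 2-fold were 169 and 310 in embryoid bodies and 262 and 76 in teratomas. At 1.5-fold they were 850 and 1024, and 1256 and 616. At 3-fold they were 63 and 213, and 83 and 27. Genes lower in teratomas were 86 with the mean of probe sets and 206 after another quantile normalization, beside 374 higher there, against 131 lower and 397 higher as reported. For teratoma over embryoid body, genes higher at 3-fold were 1687 in knockout and 1307 in control, and genes lower 1047 and 906. At 1.5-fold genes lower were 4295 and 4324. With arrays scaled to 1 median, 2036 were higher and 3786 lower in knockout, and 1533 higher and 4100 lower in control, against 2566 and 2564, and 2098 and 2456. Members lower were then 8 in knockout and 7 in control. The cause of these shifts was not tested beyond the settings' own construction. Signals near the floor, such as Cldn6, Marveld2 and Marveld3 in the knockout teratoma, are limited by background, and at the 65th percentile these 3 genes lay below the floor on both teratoma arrays and had no knockout difference there.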

Other observations

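Some junction genes outside the 9 ran the other way between settings, higher in teratomas, and were chosen here after their values were seen. Ildr2, an angulin gene, read 10.09 in the knockout teratoma, against 4.21 in knockout embryoid bodies, which lay below the floor, and 9.96 in the control teratoma, against 4.84 in control embryoid bodies. It was at least 41.1-fold higher in knockout and 34.8-fold higher in control cells. Jam2 was 7.74-fold higher in knockout and 4.64-fold higher in control cells. Cldn5 was 16.8-fold higher in knockout cells, and differed by 1.32 (log2) in control cells. Its value in knockout embryoid bodies, 4.84, lay close to the floor of 4.73. Of the plaque genes, Pard6b was about equally lower in the teratoma in knockout and control cells, 11.5-fold and 11.6-fold, and Cgn 6.16-fold and 6.05-fold.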
